A study of Mus musculus with 16 samples.

Results

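The comparison described here is that of cigarette smoke against vehicle in the GFP- cells of the mouse olfactory mucosa. Its members were chosen by sample label, as the 4 smoke and 4 vehicle arrays of sorted GFP- cells, which make 8 of the 16 Clariom S arrays of the series. All groups came from S100a5-tauGFP mice, 24 animals of both sexes aged 7 to 12 weeks, each kept alone for 40 h in a chamber with a clean air stream of 3.1 L per min. Pulses of 10 s began at 26 h and came every 20 min, with cigarette smoke for the smoke group and filtered air for the vehicle group, and the mucosa of 3 mice was pooled and sorted for each array pair. The GFP- arrays hold the cells below the sort gate and the GFP+ arrays the cells above it, so the 8 remaining arrays are the GFP+ cells of the same pools. The series text also names bourgeonal as the odour. Cigarette smoke is the name in the title and in the sample labels, which were followed here.

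Olfactory sensory neurons each express a single odorant receptor gene, chosen from a large gene family, and a receptor's mRNA on an array therefore stands for the neurons that chose it. S100a5 encodes a calcium-binding protein of these neurons whose expression follows their activity, and in S100a5-tauGFP mice the reporter is used to sort neurons that respond to an odour. The fraction below the gate can hold less active neurons together with sustentacular (supporting) cells, gland cells, microvillar cells, basal stem cells, leukocytes and glia.

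The defining markers were present in the GFP- fraction as the label implies, except that S100a5 itself was also high there. Ptprc, the pan-leukocyte phosphatase CD45, lay at 13.42 to 14.95 on the 8 GFP- arrays (log2 scale, as are all levels and differences below) and at group means of 8.14 and 8.35 in GFP+ cells. Cyp2g1, a cytochrome P450 of sustentacular cells, lay at 15.66 to 16.23 in GFP- cells and at means of 15.56 and 15.14 in GFP+ cells, so sustentacular RNA was present in both fractions. Omp, the olfactory marker protein gene of mature neurons, lay at 18.06 to 18.24 on the GFP- arrays and at means of 18.27 and 18.23 in GFP+ cells. Its values exceed 16, where sizes are uncertain. Between smoke and vehicle, Ptprc differed by -0.45 (exact two-sided permutation p = 0.286), Cyp2g1 by 0.03 (p = 0.829, exact) and Omp by 0.02 (p = 0.571, exact), with overlapping groups for each of them. The lowest p that 4 arrays against 4 can give is 0.0286.

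The arrays within a group correlated across genes at 0.988 to 0.995, and GFP- array medians lay between 8.19 and 8.29. The Y-linked genes were low in 1 vehicle pool and intermediate in 1 smoke pool. Uty, a Y-linked histone demethylase gene, stood at 4.07 in vehicle replicate 1 and 6.57 in smoke replicate 1 against 10.63 to 11.59 on the other 6 arrays. Replicates were pools of different mice. The permutation p-values rest on the 8 GFP- arrays. The limma fit below takes a common spread per gene within the groups of all 16 arrays, GFP+ cells included. Its p-values thus do not measure the spread between GFP- pools alone. The number of arrays limits the precision.

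In GFP- cells 22 genes fell after smoke and every one of them was an odorant receptor, while 3 genes rose. Among 19505 genes fitted with limma, 25 had a Benjamini-Hochberg adjusted p of at most 0.05 (0.128% of the genes), 22 of them lower (0.113%) and 3 higher (0.0154%). At an unadjusted p below 0.05 there were 503 lower genes (2.58%) and 612 higher ones (3.14%). The 4 smoke arrays lay wholly below the 4 vehicle arrays for 254 genes (1.3%) and wholly above them for 279 (1.43%). The odorant receptors as a family did not move with the 22: of 1080 measured, 378 lay below 0, and their median was 0.16 against 0.01 over all genes. The 3 that rose were Pir, Olfr798 and Gpx5. In bulk fractions such as these, fewer neurons of a receptor and less receptor mRNA per neuron cannot be told apart.

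**Figure D1:**
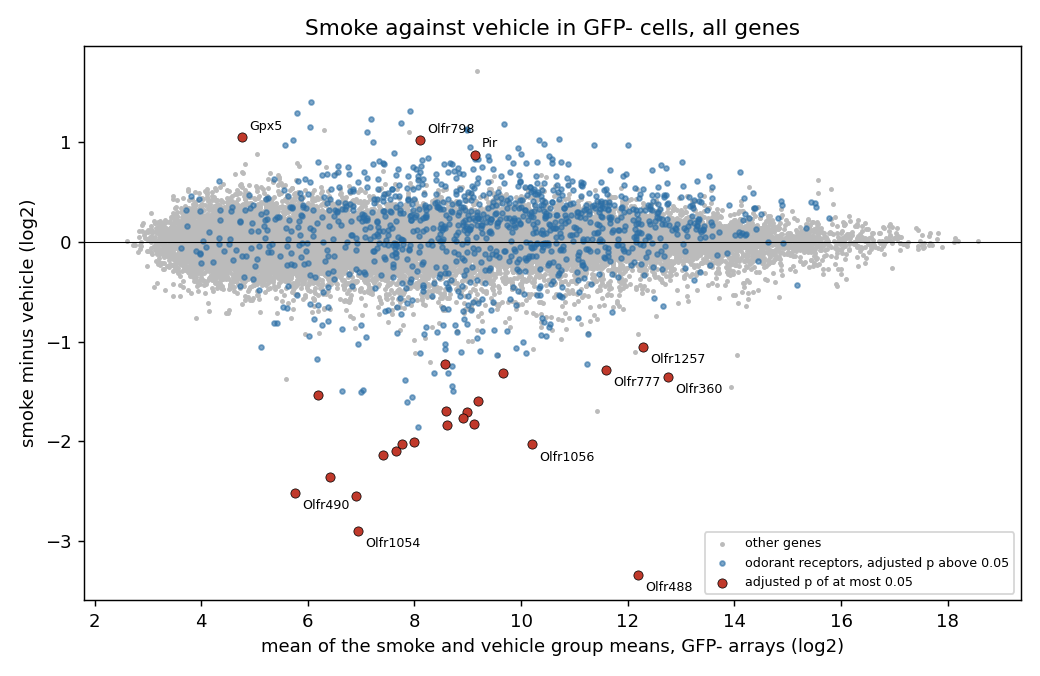
Difference between smoke and vehicle GFP- cells (log2, vertical) against the mean of the group means (log2, horizontal) for 19505 genes, with odorant receptors in blue, other genes in grey and the 25 genes that passed an adjusted p of 0.05 in red. The 22 red points below 0 are all odorant receptors and spread over low and high levels, from Olfr490 to Olfr360, and the 3 above 0 lie at 0.88 to 1.05.

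The largest fall was that of Olfr488, and Olfr490 and Olfr506, close relatives on chromosome 7, fell too. The stretch around their start codons is shown because it marks how alike these receptors are. Each line gives 50 bases before and 50 from the start codon on, from RefSeq (GRCm38.p6), 5′ to 3′ on the gene's strand, and capitals mark bases unlike Olfr488. The windows are chr7:108256087-108256186 (minus strand) for Olfr488, chr7:108287075-108287174 (minus) for Olfr490, chr7:108612259-108612358 (plus) for Olfr506, chr7:108125212-108125311 (minus) for Olfr484 and chr7:108346930-108347029 (minus) for Olfr493.
Olfr488: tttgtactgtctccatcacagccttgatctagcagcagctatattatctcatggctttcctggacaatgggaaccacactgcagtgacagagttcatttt
Olfr490: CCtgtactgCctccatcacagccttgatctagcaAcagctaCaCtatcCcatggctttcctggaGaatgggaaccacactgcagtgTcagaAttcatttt
Olfr506: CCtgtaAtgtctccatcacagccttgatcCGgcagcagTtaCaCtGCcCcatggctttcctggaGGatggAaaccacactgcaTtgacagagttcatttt
Olfr484: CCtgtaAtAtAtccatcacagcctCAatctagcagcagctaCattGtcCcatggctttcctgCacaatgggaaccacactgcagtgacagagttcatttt
Olfr493: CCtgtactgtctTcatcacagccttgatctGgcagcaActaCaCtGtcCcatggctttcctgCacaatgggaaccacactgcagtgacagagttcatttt
Over the first 50 coding bases Olfr484 and Olfr493 matched Olfr488 at 98% of positions, Olfr490 at 94% and Olfr506 at 92%. Over the 50 bases before the start codon, Olfr490 matched it at 86%, Olfr493 at 82%, Olfr484 at 80% and Olfr506 at 78%. Across all pairs of the 673 receptors whose RefSeq window could be read from a start codon, the median identity of the 50 coding bases was 34% and the 95th percentile 60%.

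Olfr488 stood at 14.07, 13.78, 13.94 and 13.7 on the vehicle arrays and at 10.68, 9.28, 10.75 and 11.43 on the smoke arrays. It was among the more strongly read receptors in vehicle mice, and smoke replicate 2 was the lowest of the 8 arrays. Olfr488 fell by 3.34 (SE 0.30, adjusted p = 6.79e-05), a 10.1-fold difference between group means of 13.87 ± 0.16 and 10.53 ± 0.90 (SD, n = 4 each). Olfr490, its neighbour, stood at 7.24, 7.33, 6.35 and 7.13 in vehicle and at 4.18, 3.62, 4.79 and 5.40 in smoke. All smoke values of Olfr490 lay at or below the level that vomeronasal receptors reach. That level is the 95th percentile of the 319 vomeronasal receptor genes on each array, 6.14 to 6.54 in GFP- cells, and since these receptors belong to another organ, a group mean below it gives only a bound. For Olfr490 the bound was a difference of at least 0.75, 1.68-fold (fitted difference -2.52, adjusted p = 0.00151). Olfr506 fell by 2.10 (SE 0.27, adjusted p = 0.00252), from 9.21, 8.80, 8.96 and 7.86 to 6.77, 5.93, 7.10 and 6.64, with no overlap.

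All 12 receptors that matched Olfr488 at 90% or more of these coding bases had fitted differences below 0, from -2.52 to -0.01, with a median of -0.66. These relatives were sought after the fall of Olfr488 was known. Olfr490 and Olfr506 passed. With them, 8 of the 12 were lower at an unadjusted p below 0.05, against 9.07% of all receptors and 2.58% of all genes. The lowest value among those that did not pass was that of Olfr484, at -1.44 (SE 0.29, adjusted p = 0.0898). Olfr482 differed by -1.12 (adjusted p = 0.613), Olfr493 by -0.69 (0.757), Olfr497 by -0.63 (0.816) and Olfr470 by -0.57 (0.512). Olfr502, Olfr492 and Olfr469 lay at -0.35, -0.31 and -0.29 with unadjusted p of 0.115 to 0.329. The smoke mean of Olfr492, 6.22, lay below the vomeronasal level of the smoke arrays (6.26), so it gives only a bound. Olfr494 and Olfr507 lay below that level in both groups. Probes of near-identical genes may read each other's mRNA, so the values of these relatives are uncertain as separate measurements, and how far they share signal was not tested. In GFP+ cells the relatives did not share a sign, with Olfr484 at 2.15 (SE 0.29, adjusted p = 0.00438), Olfr497 at 0.79 (SE 0.25) and Olfr506 at -0.76 (SE 0.27).

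Chromosome 2 held 11 of the 22 receptors that fell, among 282 measured there. They included 3 sets of near neighbours. Olfr1054 stood at 8.32, 8.23, 8.64 and 8.39 in vehicle and at 6.10, 4.79, 5.22 and 5.88 in smoke, a wide gap between the groups. Its smoke mean lay below the vomeronasal level, so its fall is bounded at 2.13, at least 4.38-fold (fitted difference -2.90, adjusted p = 6.79e-05). Olfr1056, beside it, fell by 2.03 (SE 0.25, adjusted p = 0.00206), from 11.49, 11.46, 11.01 and 10.88 to 9.61, 8.86, 8.38 and 9.86.

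Olfr1137 stood at 7.47, 7.91, 8.42 and 8.92 in vehicle and at 5.88, 5.18, 5.96 and 5.49 in smoke, below the vomeronasal level, for a bound of 1.92 or 3.78-fold (adjusted p = 0.0418). Its neighbour Olfr1135 fell by 1.70 (SE 0.26, adjusted p = 0.0111), from a vehicle range of 9.46 to 10.05 to a smoke range of 7.53 to 8.94. Olfr1034 fell by 1.59 (SE 0.29, adjusted p = 0.0362), from 9.46 to 10.55 down to 7.66 to 8.91. Olfr1032, also close by, reached the vomeronasal level in smoke, with a bound of 0.71 (adjusted p = 0.00459), and Olfr1033 between them, also at that level in smoke, was at least 1.13 lower without passing (adjusted p = 0.179).

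The other 5 receptors of chromosome 2 that fell stood apart from one another along it. Olfr52 fell by 2.02 (SE 0.32, adjusted p = 0.0111), Olfr1122 by 1.84 (SE 0.26, adjusted p = 0.00538) and Olfr1099 by 1.31 (SE 0.21, adjusted p = 0.0164). Olfr360 and Olfr1257 were among the strongest signals to fall. Olfr360 went from 13.31 to 13.57 in vehicle to 11.70 to 12.79 in smoke, a fall of 1.36 (SE 0.24, adjusted p = 0.0275). Olfr1257 went from 12.67 to 13.03 to 11.34 to 12.25, a fall of 1.05 (SE 0.16, adjusted p = 0.0110), and all 6 of its measured neighbours lay above 0, at 0.09 to 0.40.

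Chromosome 9 held 5 of the receptors that fell among its 129. Olfr894 fell by 2.13 (SE 0.25, adjusted p = 0.00128), from 8.41, 8.30, 8.85 and 8.30 to 6.30, 6.10, 6.25 and 6.69, where it came close to the vomeronasal level. Olfr958 fell by 1.82 (SE 0.24, adjusted p = 0.00252) and Olfr982 by 1.76 (SE 0.24, adjusted p = 0.00283). Olfr976 fell by 1.69 (SE 0.29, adjusted p = 0.0229). Olfr160, the M72 receptor much used in studies of olfactory axon targeting, stood at 7.31, 8.43, 8.11 and 6.48 in vehicle and at 5.02, 5.07, 4.53 and 6.30 in smoke. The highest smoke and the lowest vehicle array of M72 were thus close, and the fall was at least 1.30 or 2.46-fold (fitted difference -2.35, adjusted p = 0.0111). The remaining 3 were Olfr1496 on chromosome 19 (-2.0, SE 0.31, adjusted p = 0.0111), Olfr777 on chromosome 10 (-1.28, SE 0.23, adjusted p = 0.0402) and Olfr430 on chromosome 1 (-1.22, SE 0.21, adjusted p = 0.0229).

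**Figure D2:**
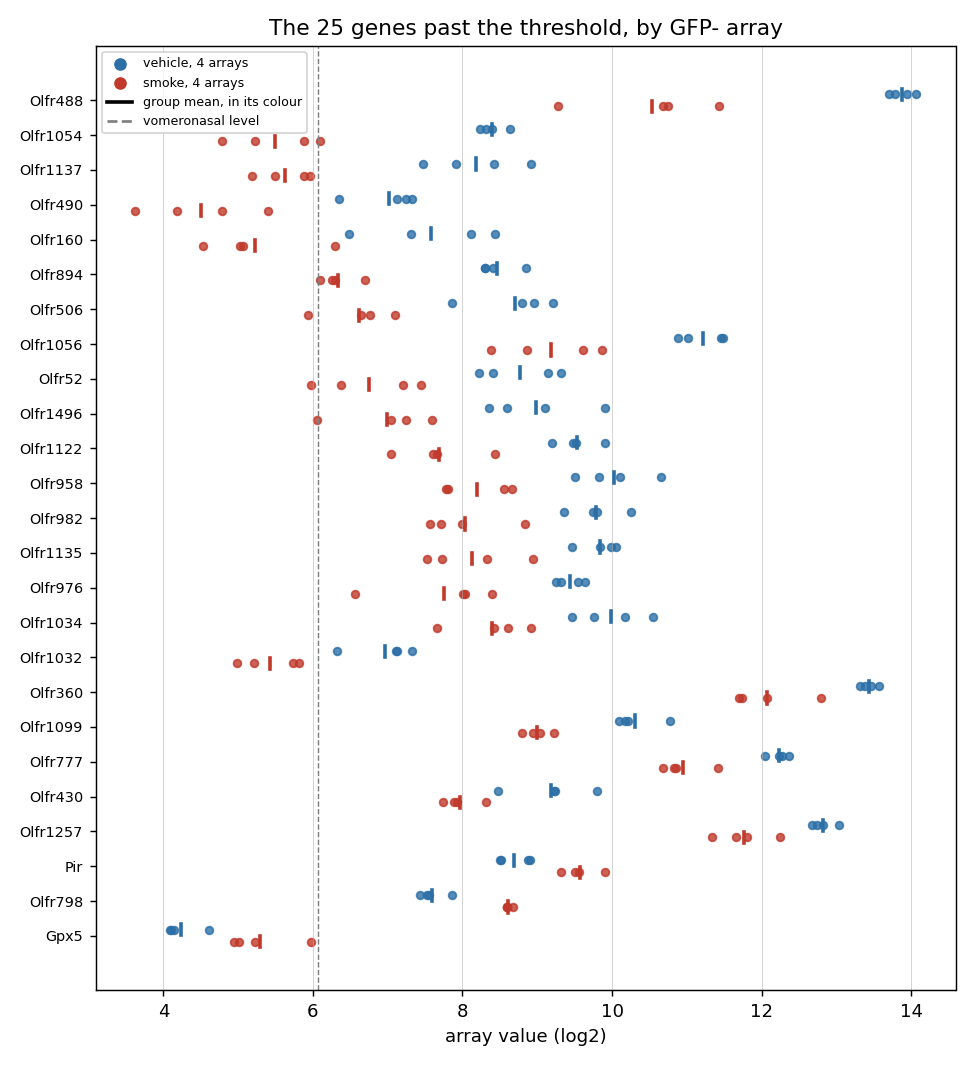
Values of the 25 called genes on each GFP- array (log2), with vehicle arrays in blue, smoke arrays in red, short bars at the group means and a dashed line at the vomeronasal level (6.07, the 95th percentile of vomeronasal receptors by their mean over the 8 arrays). For each of the 25 genes the groups do not overlap, and Olfr1054, Olfr1137, Olfr490, Olfr160 and Olfr1032 end at or below that level in smoke.

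In all, the 22 falls had a median of -1.83, from vehicle means of 6.97 to 13.87, and 5 of them ended at or below the vomeronasal level. Each of the 25 called genes kept its sign in all 21 other settings. With groups apart for each gene, leaving out arrays could not turn a sign. The fits to only the 8 GFP- arrays and with a replicate block return the same difference, so the kept sign says little. Of the 25, 11 kept their call whichever array was left out: Olfr488, Olfr490, Olfr506, Olfr1054, Olfr1056, Olfr1032, Olfr1122, Olfr894, Olfr958, Olfr982 and Olfr1496. Olfr1137 and Olfr798 lost theirs without any of the 8 arrays (adjusted p of up to 0.216 and 0.172). Olfr360 lost it without each array except smoke 4 (up to 0.133), Olfr777 without each except smoke 4 (up to 0.153), Olfr1034 without each except smoke 3 and vehicle 3 (up to 0.167), and Olfr430 without each except smoke 1 and vehicle 3 (up to 0.113). Olfr976 lost it without any vehicle array (up to 0.10), Olfr1099 without smoke 2, smoke 3 or vehicle 1 (up to 0.0770), and Olfr1135 without smoke 2, vehicle 1 or vehicle 2 (up to 0.0549). M72 lost it without smoke 2, vehicle 2 or vehicle 3 (up to 0.0546), Olfr52 without vehicle 2 or 4 (up to 0.0514) and Olfr1257 without vehicle 1 (0.0549). The sum of calls was 13 without vehicle 1, 14 without vehicle 2 and 16 without smoke 2. In a fit to only the 8 GFP- arrays, 7 of the 25 kept their call. Of the 11 above, Olfr490, Olfr506, Olfr1056, Olfr1032, Olfr1122, Olfr958, Olfr982 and Olfr1496 lost theirs in that fit (adjusted p of 0.054 to 0.205). Olfr488 kept its call there but lost it with the replicate number as a block (adjusted p = 0.0681).

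Of the 22 fallen receptors, 8 had another fallen receptor within 3 places (Olfr1032 with Olfr1034, Olfr1054 with Olfr1056, Olfr1135 with Olfr1137, and Olfr488 with Olfr490). The other measured receptors within 3 places, 108 that were taken because they were not called, had a median of 0.03 and a range of -1.85 to 1.02, and 52 of them lay below 0. Of these 108, 7 lay below vehicle without overlap (6.48%) and 1 above it. Over all receptors the shares were 4.81% below and 4.63% above, and over all genes 1.3% and 1.43%. The 4.81% includes the 22 falls themselves, whose groups were all apart, while the 108 hold none of them. These shares are thus not like for like. Calls were also spread over signal strength. Of the 270 receptors with the lowest mean level 2 fell, of the next 270 and the 270 after that 7 each, and of the 270 highest 6.

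For 11 of the 22 receptors the smoke effect differed between GFP- cells and the GFP+ cells of the same pools. In GFP+ cells 11 of the 22 lay above 0 and 11 below, with a median of 0.06 (-0.05 over all receptors), and none was among the 21 genes that passed there (0.108% of genes). The difference of the smoke effect between fractions was tested directly, in a fit that takes the arrays as independent and leaves out their pairing by pool. This difference passed for 34 of all genes (0.174%), 33 lower and 1 higher in GFP- cells, and for those 11. The 22 were chosen by their GFP- values, which also enter this difference, so their count here is not independent of that choice. Olfr488 differed between fractions by -4.49 (adjusted p = 0.000189), with 1.15 in GFP+ cells. Olfr1054 differed by -3.19 (adjusted p = 0.000683), Olfr894 by -2.97 (0.000683), Olfr360 by -2.50 (0.00211) and Olfr1257 by -1.66 (0.00251). For the other 11, M72, Olfr490 and Olfr506 among them, a difference between the fractions was not shown (adjusted p of 0.363, 0.0983 and 0.536), and their GFP+ values were -0.34, -0.47 and -0.76.

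**Figure D3:**
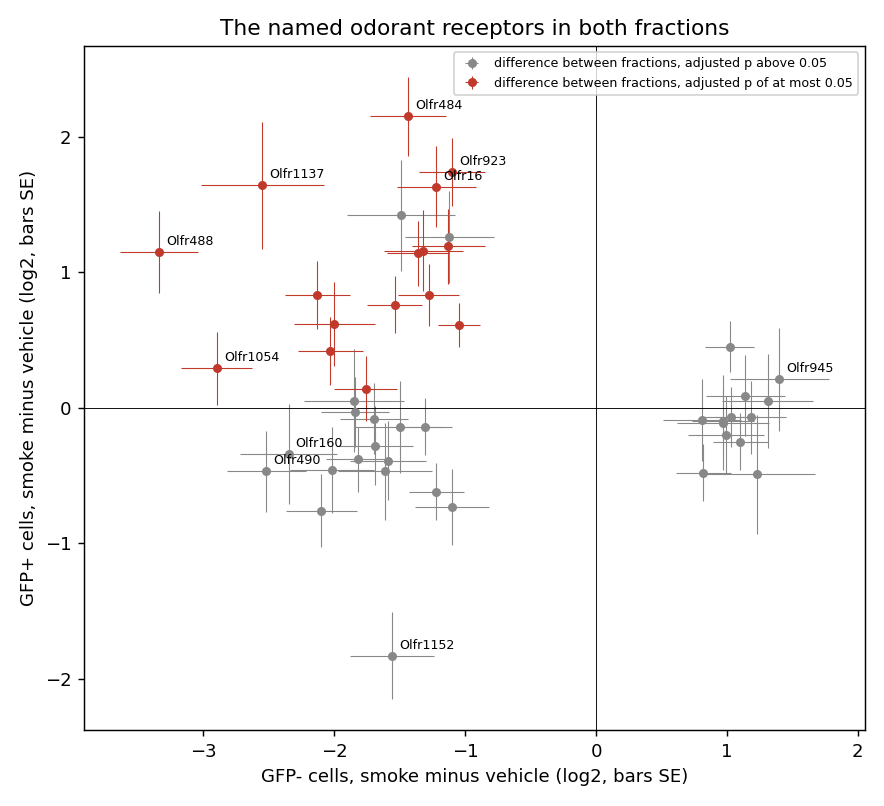
Smoke minus vehicle in GFP+ cells (log2, vertical) against the same in GFP- cells (log2, horizontal) for the named odorant receptors, with SE bars and with receptors whose effect differs between fractions in red. Red points lie at upper left, lower in GFP- and above 0 in GFP+ cells, while the receptors higher in GFP- cells lie between -0.49 and 0.45 on the vertical axis.

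A further 28 receptors lay below vehicle without overlap and with an unadjusted p below 0.05 but did not pass over all genes. Without overlap alone, 4.81% of receptors lay below vehicle and 4.63% above, against 1.3% and 1.43% of all genes. The 12 with the largest differences lay between -1.85 and -1.10, and 8 of them were above 0 in GFP+ cells. For 5 the difference between fractions passed. Besides Olfr484 (-3.59, adjusted p = 0.000589) these were Olfr923 (-2.84, adjusted p = 0.00127), Olfr16 (-2.86, adjusted p = 0.00546), Olfr855 (-2.32, adjusted p = 0.0170) and Olfr1161 (-2.48, adjusted p = 0.0187). Olfr16 is MOR23, a receptor known for its response to the synthetic odorant lyral. It stood at 12.16, 12.12, 11.35 and 11.77 in vehicle GFP- cells and at 10.49, 10.45, 10.23 and 11.33 in smoke, a narrow gap (-1.22, SE 0.30, adjusted p = 0.305), while in GFP+ cells it rose by 1.63 (adjusted p = 0.0493). Olfr1152, at -1.56 in GFP- cells without passing (adjusted p = 0.112), fell by 1.83 in GFP+ cells (adjusted p = 0.0348), and Olfr849 (-0.73), Olfr424 (-0.47) and Olfr1033 (-0.14) also lay below 0 there. Olfr1045 (-1.85), Olfr424 (-1.61), Olfr1047 (-1.49), Olfr247 (-1.12), Olfr849 (-1.10) and Olfr1033, given above, were the others, with adjusted p of 0.106 to 0.543.

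By sign, 702 receptors lay above 0 and 378 below in smoke GFP- cells, but 50 lay wholly above vehicle (4.63%) and 52 wholly below it (4.81%). Olfr798 alone among receptors rose, by 1.02 (SE 0.19, adjusted p = 0.0418), from 7.43, 7.86, 7.53 and 7.55 to 8.59, 8.67, 8.60 and 8.59. The smoke values of Olfr798 spread over less than the vehicle values, and its call rested on every array, as given above. Another 43 receptors lay above vehicle without overlap and with an unadjusted p below 0.05. The 12 largest of these differences were 0.81 to 1.40, their GFP+ values were -0.49 to 0.21, and for 0 of the 12 did the difference between fractions pass.

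Of those 12 largest differences, 7 belonged to receptors numbered in the range of the class I family, the fish-like odorant receptors that sit together in a cluster of chromosome 7 and are known for short-chain acids and other water-soluble odorants. They were Olfr648 (1.31), Olfr678 (1.23), Olfr654 (1.18), Olfr615 (1.14), Olfr651 (1.10), Olfr544 (0.82) and Olfr597 (0.81), with adjusted p of 0.0655 to 0.776. Olfr651 stood at 6.19, 6.64, 6.33 and 7.08 in vehicle and at 7.49, 7.63, 7.81 and 7.71 in smoke and came nearest to passing (SE 0.21, adjusted p = 0.0655). Olfr544, a receptor known for azelaic acid, stood at 7.64, 8.10, 7.69 and 7.49 against 8.71, 8.11, 8.92 and 8.47, with the groups just apart. Across the 119 receptors in the class I range 0 passed, 103 lay above 0, and the median was 0.35 (0.16 over all receptors). At an unadjusted p below 0.05, 34 were higher (28.6%) and 0 lower, and 14 lay above vehicle without overlap (11.8%). For the other 961 receptors those shares were 9.47% higher and 10.2% lower, with a median of 0.14. The mean level of the class I range was 8.91, 8.67, 8.93 and 8.99 on the smoke arrays and 8.25, 8.66, 8.37 and 8.65 on the vehicle arrays, so that smoke 2 and vehicle 2 nearly met. Leaving out single arrays gave medians of 0.32 to 0.47.

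The other 5 of the 12 were Olfr945 (at least 0.57, its vehicle mean being below the vomeronasal level), Olfr808 (1.03, SE 0.22, adjusted p = 0.137), Olfr71 (0.99), Olfr95 (0.97) and Olfr273 (0.97). Olfr808 stood at 9.84 to 10.44 in vehicle and at 10.74 to 11.84 in smoke. By chromosome, the median difference of receptors was 0.34 on chromosome 13 (12 receptors), 0.27 on chromosome 11 (78 receptors), 0.25 on chromosome 17 (49) and 0.25 on chromosome 7 (230), none of which but chromosome 7 held a fallen receptor. It was 0.05 on chromosome 2 and -0.02 on chromosome 9. The receptors' mean level was 9.57, 9.23, 9.19 and 9.49 on the smoke arrays and 9.26, 9.47, 9.19 and 9.28 on the vehicle arrays, overlapping groups.

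Trace amine-associated receptors, a small family of olfactory receptors for volatile amines, split by member. Of 15 measured 0 passed in GFP- cells, 10 lay below 0, and at an unadjusted p below 0.05 4 were lower (26.7%, against 2.58% of all genes) and 1 higher (6.67%, against 3.14%). Their median was -0.20, and -0.05 without vehicle 2, -0.10 without smoke 3, -0.12 without smoke 2 and -0.13 without vehicle 3. Taar2 stood at 10.10, 11.16, 10.52 and 11.21 in vehicle and at 9.84, 9.70, 9.13 and 10.04 in smoke (-1.07, SE 0.38, adjusted p = 0.716). Taar7d, with group ranges of 10.87 to 11.82 and 10.09 to 10.78, differed by -0.77 (SE 0.24, adjusted p = 0.568), and Taar7f, a receptor known for N-methylpiperidine, by -0.72 (SE 0.19, adjusted p = 0.372). These 3 rose in GFP+ cells, by 2.51, 1.53 and 1.46, and for each the difference between fractions passed (-3.58, -2.30 and -2.18, with adjusted p of 0.00546, 0.00482 and 0.00127). Taar3 went the other way in GFP- cells, from 7.57, 7.43, 6.60 and 7.78 to 9.23, 8.01, 7.99 and 8.55 (1.10, SE 0.30, adjusted p = 0.372), with -0.08 in GFP+ cells.

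Pir rose in both fractions. It encodes pirin, an iron-binding nuclear protein that is a known target of NRF2, the transcription factor of the antioxidant response. Its values were 8.51, 8.90, 8.50 and 8.87 in vehicle and 9.56, 9.32, 9.51 and 9.91 in smoke GFP- cells. The smoke arrays all lay above the vehicle arrays, and the rise was 0.88 (SE 0.14, adjusted p = 0.0152) or 1.83-fold, next to 0.94 in GFP+ cells (adjusted p = 0.00890), with a difference between fractions of -0.06 (adjusted p = 0.987). The call in GFP- cells was lost without vehicle 1 (adjusted p = 0.0782) or vehicle 3 (0.0699). NRF2 binds antioxidant response elements, and the start of Pir is shown because the core of that element, TGACNNNGC searched on both strands, has 2 matches there. The window is chrX:164269181-164269460 of GRCm38.p6 (plus strand, RefSeq), 250 bases before to 30 after the annotated start, with matches in capitals.
Pir: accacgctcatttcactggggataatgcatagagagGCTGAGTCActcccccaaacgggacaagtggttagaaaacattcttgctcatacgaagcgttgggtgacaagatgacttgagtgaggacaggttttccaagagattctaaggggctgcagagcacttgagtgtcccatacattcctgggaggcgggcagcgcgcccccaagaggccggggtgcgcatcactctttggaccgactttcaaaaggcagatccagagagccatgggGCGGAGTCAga
Counted from the annotated start, the matches begin at bases -214 and 19. Of 32851 windows of 300 bases around annotated starts, 12.4% held the motif, and that of Nqo1 held 0 matches. A match is a description of the letters and not a site shown to be bound.

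Other NRF2 targets did not pass in GFP- cells. Of 19 measured 0 passed over all genes, the median was 0.05, and 3 were higher at an unadjusted p below 0.05 (15.8%, against 3.14% of all genes) with 0 lower. Nqo1, a quinone reductase that also answers to the aryl hydrocarbon receptor, stood at 15.53, 15.67, 15.32 and 15.67 in vehicle and at 16.01, 15.92, 16.07 and 16.31 in smoke, without overlap (0.53, SE 0.13, adjusted p = 0.276). Txnrd1, a thioredoxin reductase, was at 13.12 to 13.23 against 13.34 to 13.46 (0.22, adjusted p = 0.821), and Me1, malic enzyme, at 0.45 with overlapping groups (adjusted p = 0.673). Among 9 genes of the aryl hydrocarbon receptor pathway, which senses aromatic compounds of smoke, 0 passed and the median was -0.12, but 0.01 without smoke 3, -0.03 without smoke 1, -0.04 without vehicle 3 and -0.02 over the members above the vomeronasal level. Tiparp, a feedback target of that receptor, differed by -0.31 (adjusted p = 0.776) and Ahr itself by 0.28 (adjusted p = 0.876). The third called rise, Gpx5, a glutathione peroxidase gene known from the epididymis, lay below the vomeronasal level in both groups (5.29 and 4.23, adjusted p = 0.0330), so no fold is given, and its call was lost without smoke 3 or vehicle 1, 2 or 3 (up to 0.126).

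Stress and damage genes held no gene that passed. Among 12 measured p53 targets and apoptosis genes 0 passed. Their median of -0.12 was 0.00 without smoke 1, -0.05 without vehicle 4, -0.07 without smoke 4 and -0.02 over the members above the vomeronasal level. Cdkn1a, the p21 inhibitor of the cell cycle, was at 14.31 to 14.79 in smoke and 13.90 to 14.08 in vehicle (0.55, SE 0.14, adjusted p = 0.342). Zmat3, an RNA-binding target of p53, differed by 0.41 (adjusted p = 0.845) and Trp53inp1 by -0.36 (adjusted p = 0.876). The unfolded protein and integrated stress response had a median of 0.01 over 14 genes and a range of -0.10 to 0.18, and heat shock proteins had 0.00 over 8 genes and a range of -0.10 to 0.16, with 0 genes of either at an unadjusted p below 0.05. Of 22 immediate early genes 0 passed, with a median of -0.16, or -0.27 without smoke 2. Ier2 was lower without overlap (-0.25, adjusted p = 0.786) and Nr4a2 differed by 0.44 (adjusted p = 0.879).

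S100a5, the gene that drives the reporter, was higher on every smoke GFP- array. Its values were 14.91, 15.29, 15.47 and 15.31 in vehicle and 16.08, 15.51, 15.89 and 16 in smoke, and smoke 2 lay just above the highest vehicle array. The difference was 0.62 (SE 0.14), with an exact permutation p of 0.0286 and an adjusted p over all genes of 0.179. Across settings the adjusted p ran from 0.0445 to 0.843. Sema7a, a semaphorin raised by activity in olfactory axons, differed by 0.46 without overlap (adjusted p = 0.495), and Pcp4l1, a calmodulin-binding peptide gene, by 0.23 with overlap (adjusted p = 0.917). In GFP+ cells S100a5, Sema7a and Pcp4l1 of the activity-raised list differed by 0.56, 0.47 and 0.42 (adjusted p of 0.364, 0.537 and 0.999). Their differences between fractions were 0.07, -0.01 and -0.19 (adjusted p of 0.987, 0.998 and 0.957). The other 2 genes of that list, named after their values were seen, were Kirrel2, an adhesion gene, at -0.51 (adjusted p = 0.938), and Lrrc3b, at 0.14 (adjusted p = 0.976). None of these 5 activity-raised genes passed (median 0.23, or 0.35 without vehicle 2), and the pair of activity-lowered genes measured, Kirrel3 and Epha5, lay at 0.20 and 0.16. The 18 mature neuron markers had a median of 0.08 and ranged from -0.04 to 0.22, with 0 at an unadjusted p below 0.05. Umodl1 (0.22), Adcy3, the adenylyl cyclase of odour transduction (0.13), and Ric8b, a chaperone of the olfactory G protein (0.14), had the smallest p of these.

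The largest difference outside the receptors was that of Pcdh10, which encodes a protocadherin, a neuronal cell adhesion protein. It stood at 8.55, 8.91, 8.10 and 7.71 in vehicle and at 10.66, 9.85, 10.03 and 9.59 in smoke. Every smoke array exceeded every vehicle array, and the difference of 1.71 (SE 0.33), 3.28-fold, just missed the threshold (adjusted p = 0.0620). In GFP+ cells Pcdh10 differed by 1.04 (adjusted p = 0.693). Among genes above the vomeronasal level other than odorant receptors, 113 were higher and 77 lower without overlap and with an unadjusted p below 0.05. Without overlap alone, 1.24% of genes other than odorant receptors lay above vehicle and 1.1% below. Over all 19505 genes, of which 18425 are these same genes, the shares were 1.43% and 1.3%. Neither share carries the filters on level and unadjusted p, so whether the counts of 113 and 77 stand out was not tested. The other larger differences upward were those of Marchf4, a membrane ubiquitin ligase gene (0.67, SE 0.15, adjusted p = 0.185), Blcap (0.61), Nkap (0.60), Jakmip3 (0.57) and the zinc finger gene Zscan22 (0.56), with adjusted p of 0.331 to 0.671 for the last 4. For Nkap, vehicle 2 at 8.15 came close to the smoke values of 8.19 to 8.24.

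**Figure D4:**
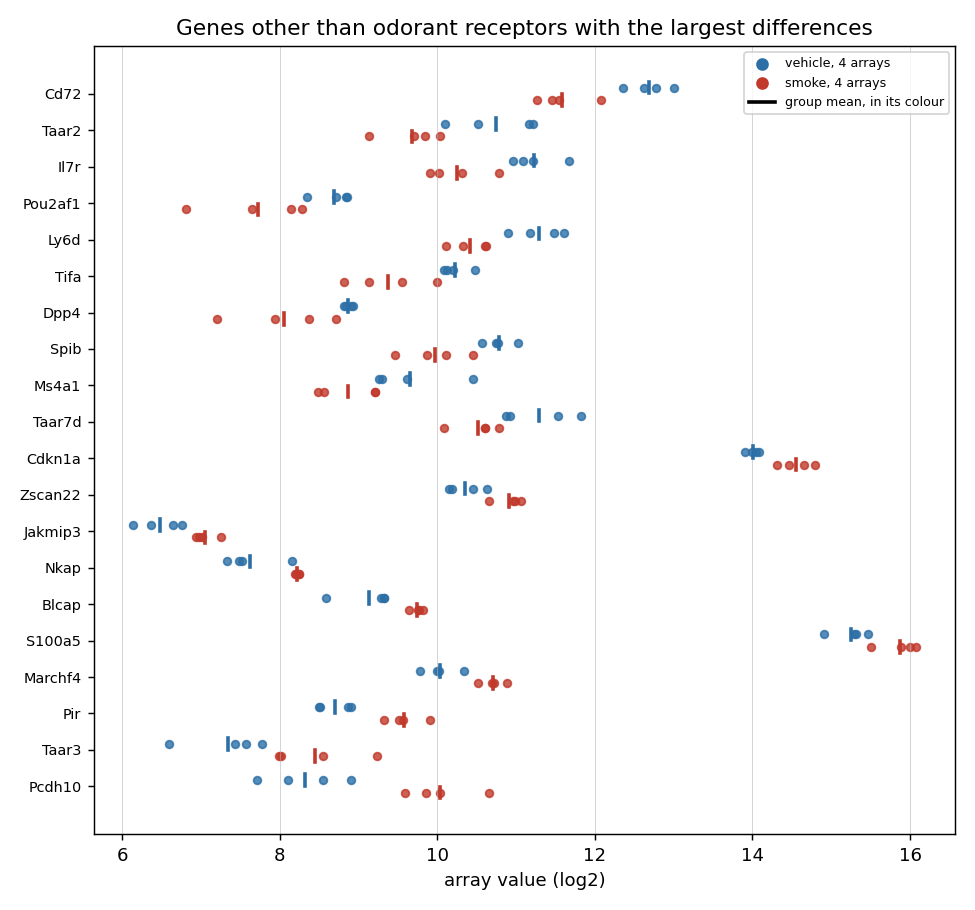
Values on each GFP- array (log2) of the genes other than odorant receptors with the largest differences, vehicle in blue and smoke in red, with short bars at the group means. The groups are apart for each gene, Pcdh10 has the largest difference, and of the genes plotted only Pir passed over all genes.

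Among genes other than odorant receptors that lay above the vomeronasal level with groups apart and an unadjusted p below 0.05, none of the 10 with the largest differences downward passed. They were Taar2 and Taar7d, given above, and 8 genes whose known roles are given as background; of these only Ms4a1 is in the B cell list used here. Cd72, an inhibitory coreceptor of B cells, stood at 12.62, 12.36, 12.77 and 13.00 in vehicle and at 11.46, 11.54, 12.08 and 11.26 in smoke (-1.10, SE 0.21, adjusted p = 0.0526). Pou2af1, a transcriptional coactivator of B cells, differed by -0.97 (adjusted p = 0.345), Spib, an Ets factor of B cells, by -0.81 (0.512), and Ms4a1, which encodes CD20, by -0.79 (0.714). Il7r, a cytokine receptor of lymphoid cells, differed by -0.98 (SE 0.26, adjusted p = 0.363), Ly6d, a marker of early B lineage cells and some epithelia, by -0.87 (SE 0.20, adjusted p = 0.179), Tifa, a signalling adaptor, by -0.85 (0.512), and Dpp4, a membrane peptidase, by -0.82 (0.50). For Dpp4 the vehicle arrays lay within 8.82 to 8.93 while the smoke arrays spread from 7.20 to 8.72. In GFP+ cells the group means of these 8 genes were 3.92 to 7.02, each below its means in GFP- cells.

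Of 8 B cell genes measured 0 passed, the median was -0.63 (0.01 over all genes), and 5 were lower at an unadjusted p below 0.05 (62.5%, against 2.58% of all genes). Vpreb3, of pre-B cells, differed by -1.13 (SE 0.26, adjusted p = 0.214), with smoke 3 at 9.78 just above vehicle 3 at 9.67, and Pax5, the B lineage transcription factor, by -0.65 (adjusted p = 0.610). The mean level of the B cell list was 8.71, 8.98, 9.56 and 8.53 on the smoke arrays and 9.41, 9.34, 9.42 and 9.90 on the vehicle arrays, and smoke 3 lay within the vehicle range. Without smoke 3 the median was -0.88 and without smoke 4 it was -0.44. The 6 pan-leukocyte genes were all below 0 with a median of -0.37, but none had an unadjusted p below 0.05, and the median was -0.17 without smoke 1, -0.19 without vehicle 4, -0.23 without smoke 4 and -0.64 without smoke 3. Their mean level was 12.53, 13.24, 13.91 and 12.66 in smoke and 13.30, 13.02, 13.46 and 13.99 in vehicle. The part of total leukocyte RNA in the B cell values was not tested. In fits to the 8 GFP- arrays, 8 genes passed without a covariate and 15 with the mean of the 5 leukocyte lists as one.

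Other leukocyte lists were lower by less and overlapped between groups. Among 14 macrophage and antigen-presenting cell genes, 13 lay below 0 with a median of -0.28, and 4 were lower at an unadjusted p below 0.05 (28.6%). The class II genes H2-Eb1 and H2-Aa differed by -0.66 and -0.50, and C1qa, a complement gene, by -0.41 (adjusted p of 0.726, 0.795 and 0.776). Without vehicle 4 this median was -0.12, without smoke 1 it was -0.15 and without smoke 3 it was -0.53. Neutrophil genes, among the strongest signals of the fraction, had a median of -0.17 over 12 genes and 0 at an unadjusted p below 0.05. That median was 0.01 without smoke 1, -0.02 without vehicle 4 and -0.05 without smoke 4, but -0.45 without smoke 3, -0.31 without vehicle 1, -0.28 without smoke 2 and -0.26 without vehicle 2. Mmp8, a neutrophil collagenase, spread from 13.35 to 15.59 within the smoke group alone, and Cxcr2, a neutrophil chemokine receptor, differed by -0.79 (adjusted p = 0.873). T lymphocyte and killer cell genes had a median of -0.19 over 10 (-0.08 without vehicle 4, -0.11 without smoke 4, -0.30 without vehicle 3, -0.31 without vehicle 2 and -0.46 without smoke 3), with Ccl5 at -0.83 (adjusted p = 0.776). Among 17 cytokine and inflammation genes 12 lay below 0 (median -0.26, or -0.16 without vehicle 4 and -0.17 without smoke 4), and Cxcl2, a neutrophil attractant, was at -0.70 (adjusted p = 0.854). None of these genes passed.

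**Figure D5:**
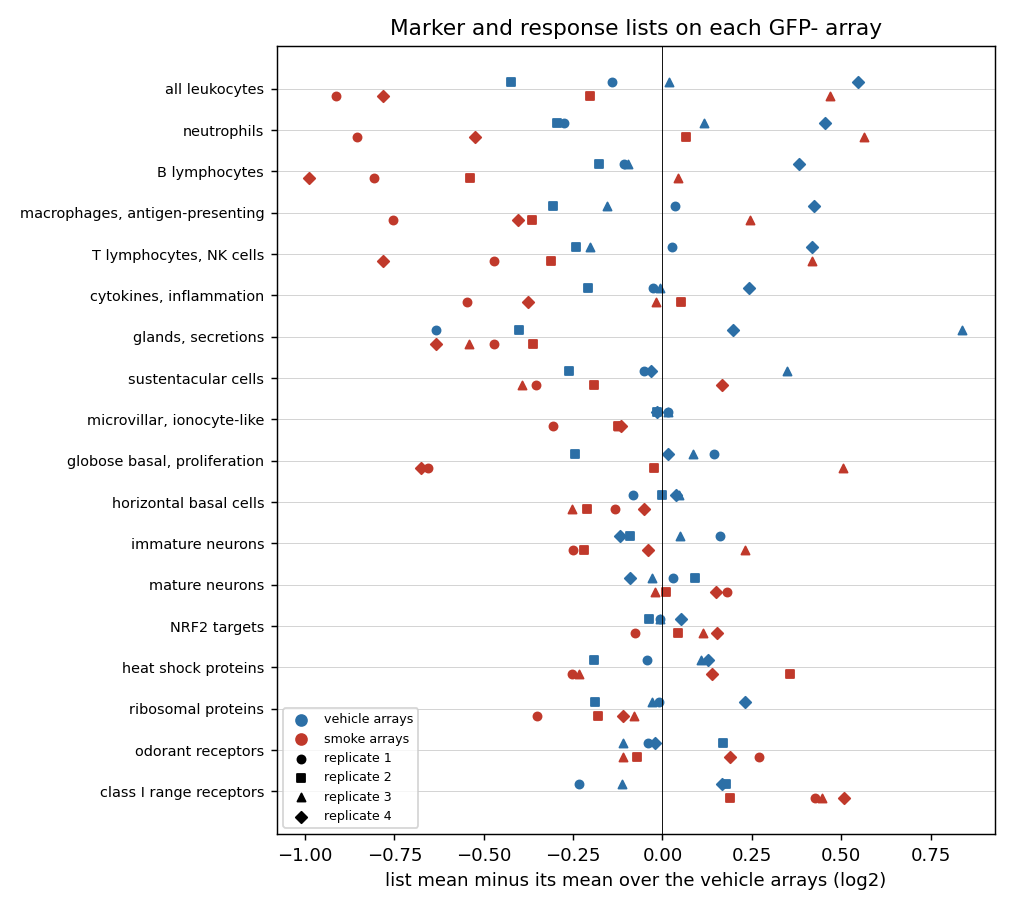
Mean level of each gene list on each GFP- array minus its mean over the 4 vehicle arrays (log2), vehicle in blue and smoke in red, with symbols for the replicate number. Smoke replicate 3 carries the most leukocyte signal of the smoke arrays, and vehicle replicates 3 and 4 the most gland signal. Among the many lists looked at, the groups do not overlap for the microvillar list and barely so for the class I range. The nearest class I levels are 8.67 in smoke and 8.66 in vehicle.

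Epithelial lists were mostly lower in smoke without a gene that passed. Of 18 gland and secretion genes 16 lay below 0 with a median of -0.54, but the list mean was 8.31, 8.54, 9.78 and 9.14 on the vehicle arrays and 8.47, 8.58, 8.40 and 8.31 on the smoke arrays, so vehicle 3 and 4 stood above the other 6 arrays. Without vehicle 3 the median was -0.26. Obp1a, an odorant-binding protein gene, was at 6.89, 7.72, 9.48 and 8.56 in vehicle and at 6.98 to 7.73 in smoke (-0.88, SE 0.43, adjusted p = 0.868). Outside the list, and picked out after their values were seen, the secretory genes Bpifb9a (-1.695, adjusted p = 0.849) and Bpifb9b (-1.45, adjusted p = 0.862) had the widest differences downward among genes other than receptors, with standard errors of 0.715 and 0.67. The 11 sustentacular genes had a median of -0.16, which was -0.04 without vehicle 3, -0.10 without smoke 1, -0.25 without vehicle 2 and -0.31 without smoke 4, with Gpx6, a glutathione peroxidase of the olfactory mucosa, at -0.64 (adjusted p = 0.876) and Sec14l3 at -0.39. With the mean of that list as a covariate, 2 genes passed in a fit to the 8 GFP- arrays, where 8 passed without it.

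The 16 microvillar and ionocyte-like genes were more even between arrays. Their mean level was 9.49, 9.67, 9.67 and 9.68 in smoke, below 9.81, 9.78, 9.81 and 9.78 in vehicle without overlap. Of the genes, 14 lay below 0, with a median of -0.15, or -0.08 without smoke 1. By gene, 0 of the 16 had groups apart, and 1 was lower at an unadjusted p below 0.05 (6.25%, against 2.58% of all genes). The list was 1 of many looked at. Ltc4s, the leukotriene C synthase gene of tuft-like microvillar cells, was at 7.57 to 8.22 in smoke and 8.13 to 8.65 in vehicle (-0.52, SE 0.14, adjusted p = 0.372). Pou2f3, their master regulator, differed by -0.41 (adjusted p = 0.879) and Gnat3, gustducin, by -0.42 (adjusted p = 0.898).

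Stem cell and immature neuron genes did not pass. Globose basal and proliferation genes had a median of -0.18 over 14, with 12 below 0, and their mean level was 8.79, 9.42, 9.95 and 8.77 in smoke against 9.59, 9.20, 9.53 and 9.46 in vehicle, a wider spread in smoke. Their median was -0.04 without smoke 1, -0.03 without smoke 4 and -0.45 without smoke 3. Birc5, the survivin gene of dividing cells, was at -0.55 (adjusted p = 0.845). Of 10 horizontal basal cell genes 8 lay at or below the vomeronasal level, so their median of -0.20 (-0.12 without vehicle 4) has little signal behind it. The 15 immature neuron genes had a median of -0.02, which ran from -0.12 without smoke 3 to 0.06 without smoke 2, with Crmp1, an axon growth protein gene, at 0.39 without overlap (adjusted p = 0.849) and Ablim1 at -0.62 (adjusted p = 0.849). Genes of guanylyl cyclase D and Trpc2 neurons had a median of -0.11 over 6 (-0.03 without smoke 4 or vehicle 4, -0.17 without smoke 3 and -0.18 without vehicle 1), of which 3 lay at or below the vomeronasal level, with Gucy1b2 at -0.67 (smoke mean below that level, adjusted p = 0.833) and Car2, a carbonic anhydrase, at -0.37.

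Of the 62 cytosolic ribosomal proteins 59 lay below 0, by a median of -0.19, and 0 passed. Their mean level was 13.16, 13.33, 13.43 and 13.40 in smoke and 13.50, 13.32, 13.48 and 13.74 in vehicle, so the groups overlapped at vehicle 2, and the median was -0.12 without smoke 1 or without vehicle 4. Rpl22 had the largest difference of those with the smallest p (-0.40, SE 0.14, adjusted p = 0.673), and Rps4x lay below vehicle without overlap (-0.32, adjusted p = 0.776). Ensheathing glia genes had a median of -0.06 over 7, from -0.22 without smoke 3 to 0.05 without smoke 4. Endothelial and stromal genes had -0.15 over 11, but 0.08 without vehicle 3, -0.08 without smoke 2, -0.23 without smoke 1, -0.26 without vehicle 1, -0.27 without vehicle 4 and -0.36 over the members above the vomeronasal level. Pecam1 of that list was lower without overlap (-0.47, adjusted p = 0.842). Alas2 of red blood cells, the only gene of its list measured, was at -0.65 (adjusted p = 0.911) and varied from 10.07 to 12.41 between arrays. Vomeronasal receptors, which served as the low reference, had a median of 0.04 over 319 genes, with 10 higher and 7 lower at an unadjusted p below 0.05.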

How the data were processed

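RNA of sorted GFP- and GFP+ cells (50 to 100 ng per array) was read on Clariom S arrays. The submitters' processing notes name Affymetrix Expression Console, without a version. The deposited values, 1 per probe set, were taken as log2 from their range, and as normalized between arrays because the sorted values of the arrays differ by at most 0.346. For the normalization method, none is given in the sources used here. The deposited log2 values ran from 2.29 to 18.596, and 0.946% exceeded 16, so sizes at the top of the scale are uncertain. Of 28846 probe sets, 19572 had 1 gene symbol in the platform annotation, 0 had several, 2634 had none and 6640 were controls. They gave 19505 genes.

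From these values, limma 3.58.1 (R 4.3.3) fitted 4 group means over all 16 arrays (lmFit, eBayes), with Benjamini-Hochberg adjustment over all genes at 0.05 and contrasts for smoke against vehicle and for the difference between fractions. The fit was also run on simulated arrays with independent noise, which do not carry pool pairing or shared shifts in cell makeup. Single markers had exact two-sided permutation tests. Named genes were the 4 markers, all genes that passed, the 12 largest receptor and 10 largest other differences in each direction among those with an unadjusted p below 0.05 and groups apart, and the 3 smallest p of each list. The other genes were to lie above the vomeronasal level. Near relatives of Olfr488 were added after its values were seen. The members and lists were chosen with earlier results of these data known. Replicates are pools of 3 mice. Alternatives were other normalizations, variance models, filters, covariates, a replicate block and arrays left out. Sequences are RefSeq's for GRCm38.p6.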

Additional observations from a re-analysis of the deposited data

Results flagged for a closer look

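Chance sets about 1 in 20 groups of 4 arrays apart by the gap measure used (Dixon's, above 0.829 of the range), and 14 of 296 groups were set apart. Among vehicle arrays, replicate 1 stood apart for Uty (4.07), Eif2s3y (4.43) and Kdm5d (5.09), all Y-linked, for Gucy1b2, a soluble guanylyl cyclase gene (7.29), for Olfr849 (9.94) and for Vmn1r44, a vomeronasal receptor (5.49). Vehicle replicate 3 stood apart for Olfr1045 (8.25) and for Pou2f3 (9.15), and vehicle replicate 4 for Gpx5 (4.61), Blcap (8.59) and Npas4, a neuronal immediate early gene at a low level (3.43). Among smoke arrays, replicate 3 stood apart for Ric8b (17.31) and replicate 4 for Sec14l3 (12.21) and Acta2, a smooth muscle actin (6.56).

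For 19 named genes the smoke effect in GFP- cells differed from that in GFP+ cells, by limma's test of the difference itself. Besides Olfr488 (-4.49), Olfr1054 (-3.19), Olfr894 (-2.97), Olfr360 (-2.50) and Olfr1257 (-1.66), the receptors that fell in GFP- cells were Olfr1137 (-4.19, adjusted p = 0.00977), Olfr1496 (-2.63, 0.0162), Olfr1056 (-2.45, 0.00517), Olfr1032 (-2.29, 0.00208), Olfr777 (-2.11, 0.00919) and Olfr982 (-1.90, 0.0215). Receptors that did not pass in GFP- cells were Olfr484 (-3.59), Olfr16 (-2.86), Olfr923 (-2.84), Olfr1161 (-2.48) and Olfr855 (-2.32), with Taar2 (-3.58), Taar7d (-2.30) and Taar7f (-2.18). For all 19 the smoke effect was lower in GFP- than in GFP+ cells. Each of these genes was named by its difference in GFP- cells, which is part of the value tested.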

How the results depend on the processing

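All 25 called genes kept their sign in all 21 alternatives (23 of them in the filter on low levels, which holds no others). For the settings that leave out arrays this was fixed in advance, since the groups of each gene were apart. The number of calls moved, and the cause was not tested, beyond the fewer arrays in some of these fits. It was 8 with only the 8 GFP- arrays (7 lower, 1 higher). In that same fit it was 15 with the leukocyte lists as covariate (14 lower, 1 higher) and 2 with the sustentacular list (2 lower, 0 higher). Over all arrays it was 15 without replicate 1 of both exposures (14 lower, 1 higher). With single arrays left out it was 13 to 28 in all, 13 to 25 lower and 0 to 4 higher. Trended, robust variances gave 6 higher, and an adjusted p of at most 0.10 gave 5 higher. With the replicate number as a block over the 8 arrays, 2 genes passed, both lower, and 0 higher; same-numbered deviations correlated at -0.084 to 0.177, so the numbers were not taken to pair the pools. Without single arrays Omp ran from -0.005 to 0.046 (the latter without replicate 1 of both) and Cyp2g1 from -0.048 to 0.142. Omp turned sign at -0.009 with the leukocyte covariate and at -0.005 without smoke 4 or vehicle 4. Cyp2g1 turned at -0.004 with quantile normalization, -0.009 with values above 16 set to 16, -0.042 with the leukocyte covariate, -0.048 without smoke 4 and -0.018 without vehicle 2. Of list medians, 319 stayed within the spread and 11 moved. Signal near the vomeronasal level limits the low receptors.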
